A study of Mus musculus with 24 samples.

Results

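The 31 genes described here act in the entry of pyruvate and glutamate into the tricarboxylic acid (TCA) cycle and in steps of the cycle itself. They were chosen by matching gene symbols in the annotation column of the 3 deposited count tables, and all 31 were found among the 55401 genes of each table. The matching rule used no measured value.

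Pyruvate enters mitochondria through a carrier made of Mpc1 and Mpc2 and is then either oxidised to acetyl-CoA by the pyruvate dehydrogenase complex or carboxylated to oxaloacetate by pyruvate carboxylase (Pcx). The kinases Pdk1, Pdk2, Pdk3 and Pdk4 phosphorylate and switch off pyruvate dehydrogenase, and the phosphatase Pdp1 switches it back on. Inside the cycle isocitrate is converted to alpha-ketoglutarate by isocitrate dehydrogenases and on to succinyl-CoA by the oxoglutarate dehydrogenase complex. Aminotransferases and glutamate dehydrogenase exchange alpha-ketoglutarate with glutamate. In pancreatic ductal adenocarcinoma cells, p53 has been linked to the balance of these cycle metabolites.

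Gene expression was measured by poly(A) RNA sequencing of mouse pancreatic ductal adenocarcinoma (PDAC) cell lines in 24 libraries of 11 groups, held in 3 tables. In the KPnull table, cells carried a doxycycline-inducible p53WT, p53TAD1m, p53TAD2m or p53TAD12m, or a vector without cDNA, with 2 libraries each. TAD1 and TAD2 are the transactivation domains of p53, and TAD12m has both mutated. By the growth protocol, all 5 KPnull groups received 1 µg/ml doxycycline for 48 h before harvest. The series text differs on whether all of them did. In the KPsh table, cells with a doxycycline-dependent knockdown of p53 were kept off or on 1 µg/ml doxycycline for 10 days, with 3 libraries each, so that p53 is restored off doxycycline. In the Pcyt2 table, KPsh cells whose Pcyt2 gene had been targeted by a guide (sgPcyt2), without or with a guide-resistant Pcyt2 cDNA, were kept off or on 1 µg/ml doxycycline for 6 days, with 2 libraries each. Pcyt2 makes CDP-ethanolamine for phospholipid synthesis. The labels do not say whether libraries came from separate cultures or whether a line is 1 clone, so p-values reflect only how far these libraries differ, which can be technical.

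Total counts were 13657592 to 19431250 in the KPnull libraries, 9393966 to 12983420 in the KPsh libraries and 13801514 to 17127760 in the Pcyt2 libraries. Trp53, which encodes p53, followed the labels. It averaged 668, 638, 527 and 566 TMM-scaled CPM (counts per megacount) with p53WT, TAD1m, TAD2m and TAD12m, against 5.33 CPM with vector. It averaged 258 CPM in KPsh cells off doxycycline and 21.1 CPM on it, 41.9 CPM off and 20.9 CPM on it in sgPcyt2 cells, and 92.03 CPM off and 19.8 CPM on it in sgPcyt2 cells with cDNA. The p53 target Cdkn1a averaged 379.7, 53.5, 295 and 32.6 CPM with the same p53 forms, against 43.1 CPM with vector. It averaged 489 CPM off and 52.4 CPM on doxycycline in KPsh cells, 296 CPM off and 73.6 CPM on it in sgPcyt2 cells, and 388 CPM off and 50.04 CPM on it with cDNA. Pcyt2 averaged 19.5 CPM off and 28.6 CPM on doxycycline in sgPcyt2 cells, against 2197 CPM off and 2612 CPM on it with cDNA. It averaged 86.3 CPM off and 109 CPM on doxycycline in KPsh cells, and between 78.7 (p53WT) and 95.8 (TAD12m) CPM in the 5 KPnull groups. Of 10 epithelial markers, Krt8 stood at 1340 to 4900 CPM over all libraries, but Epcam stayed at or under 1.38 CPM and Cldn4 under 1 CPM. Krt7 stood at 0.19 to 2.4 CPM in the Pcyt2 libraries, against 205 to 1050 CPM in the KPsh libraries. Ptprc, which marks leukocytes, stayed at or under 0.533 CPM, and at least 7 of 8 fibroblast markers were under 1 CPM in each table. Csf1r stood at 5.33 to 21.2 CPM and Cd68 at 1.68 to 9.63 CPM.

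Pcx and Pdk2 were higher in 3 comparisons that share no library, given further on, whereas Pdk1 changed direction between them, and the sequences around their starts are shown for that reason. The windows run 5′ to 3′ from 250 bases before to 50 bases after a RefSeq transcript start on GRCm38.p6, and capitals mark CACGTG, the canonical E-box.
Pdk2: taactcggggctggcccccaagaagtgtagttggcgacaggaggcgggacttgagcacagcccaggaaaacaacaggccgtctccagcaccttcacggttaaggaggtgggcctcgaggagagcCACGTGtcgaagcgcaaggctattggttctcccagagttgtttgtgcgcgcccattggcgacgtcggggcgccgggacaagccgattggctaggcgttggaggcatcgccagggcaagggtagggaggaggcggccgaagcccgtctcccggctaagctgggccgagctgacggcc
Pcx: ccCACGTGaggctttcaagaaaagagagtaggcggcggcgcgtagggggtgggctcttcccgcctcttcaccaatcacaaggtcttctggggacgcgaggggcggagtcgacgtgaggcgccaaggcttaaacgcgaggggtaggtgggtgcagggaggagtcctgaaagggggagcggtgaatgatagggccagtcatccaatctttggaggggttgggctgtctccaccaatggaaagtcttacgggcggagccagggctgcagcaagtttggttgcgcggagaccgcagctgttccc
Pdk1: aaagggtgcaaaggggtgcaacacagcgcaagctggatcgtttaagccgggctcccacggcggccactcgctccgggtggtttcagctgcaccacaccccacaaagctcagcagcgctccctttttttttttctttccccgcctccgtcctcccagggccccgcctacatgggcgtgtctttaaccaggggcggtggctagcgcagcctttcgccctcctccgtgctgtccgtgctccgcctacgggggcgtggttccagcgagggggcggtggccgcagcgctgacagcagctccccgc
The Pdk2 window lies at chr11:95041322-95041621 on the minus strand, the Pcx window at chr19:4510222-4510521 on the plus strand and the Pdk1 window at chr2:71872974-71873273 on the plus strand. CACGTG starts at position 125 of the Pdk2 window and position 3 of the Pcx window, and the Pdk1 window does not hold it. RefSeq windows were matched for 29 of the 31 genes, in 39 windows, and not for Pdp1 and Idh3a. CACGTG, which reads the same on both strands, was in 5 of the 39 windows, those of Ogdh, Pcx and Pdk2, and in 7.15% of all 32851 windows. Unlike Pcx and Pdk2, Ogdh was lower off doxycycline in KPsh cells and in the Pcyt2-targeted cells without and with cDNA. Whether the motif bears on any change was not tested. The p53 half-site consensus was in 2 of the 39 windows, those of Got1 and Pdhx, and in 8.36% of all windows. In mm10 the counted transcripts span chr11:95026258-95041354 for Pdk2, chr19:4510472-4621752 for Pcx and chr2:71873224-71903858 for Pdk1, and the counts are over their exons.

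Levels were compared between genes per transcript length, in RPKM (CPM divided by length in kilobases), as the range of the 11 group means. Mdh2, mitochondrial malate dehydrogenase, was the most abundant at 183 to 316 RPKM, followed by citrate synthase (Cs) at 88.5 to 186 RPKM. Dlst, Pdha1, Got1, Glud1 and Got2 reached over 100 RPKM in at least 1 group, with ranges of 66.01 to 131, 81.5 to 129, 42.96 to 127, 76.8 to 119 and 55.8 to 117 RPKM. In that order these are the oxoglutarate dehydrogenase core, a pyruvate dehydrogenase subunit, the cytosolic aspartate aminotransferase, glutamate dehydrogenase and the mitochondrial aspartate aminotransferase. Idh3b, Idh1 and Ogdh stood at 78.5 to 97.2, 20.2 to 93.1 and 30.4 to 84.95 RPKM. Mdh1, Suclg1, Idh2 and Idh3g stood at 50.7 to 72.5, 53.8 to 66.4, 23.1 to 65.3 and 37.2 to 64.2 RPKM. Dld, Idh3a, Pdhb and Fh1 stood at 40.5 to 58.4, 18.3 to 55.5, 23.6 to 43.5 and 20.1 to 40.1 RPKM.
The succinyl-CoA synthetase subunits Suclg2 and Sucla2 stood at 24.3 to 37.99 and 23 to 31.7 RPKM. The pyruvate carrier genes Mpc1 and Mpc2 were lower, at 5.87 to 26.2 and 11.4 to 20.1 RPKM, beside Pcx at 5.99 to 24.3 RPKM. Gpt2, Pdhx and Dlat stood at 5.31 to 19.8, 8.5 to 18.8 and 6.87 to 17.9 RPKM. By their highest group mean the regulators of pyruvate dehydrogenase came last, with Pdk2 at 0.4498 to 15.4, Pdk1 at 3.47 to 7.09, Pdp1 at 2.92 to 6.75 and Pdk3 at 0.165 to 4.17 RPKM. Pdk4 reached at most 0.732 RPKM in the KPnull groups and was at 0 in all Pcyt2 libraries and in 5 of 6 KPsh libraries. Between the group means Pdk2 spanned a 34.2-fold range and Pdk3 a 25.3-fold range, whereas Idh3b and Suclg1 spanned 1.24-fold each. Scaling was done separately in each table, and the Pdk3 and Suclg1 ranges cross tables. Within the Pcyt2 groups Pdk3 ran from 0.165 RPKM (sgPcyt2 off doxycycline) to 2.91 RPKM (sgPcyt2 on it). The low ends of Pdk2 and Pdk3 rest on few counts. For Idh2 and Pdk4 the Pcyt2 table counts another transcript than the other tables, so their levels cross the tables with that difference.

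**Figure D1:**
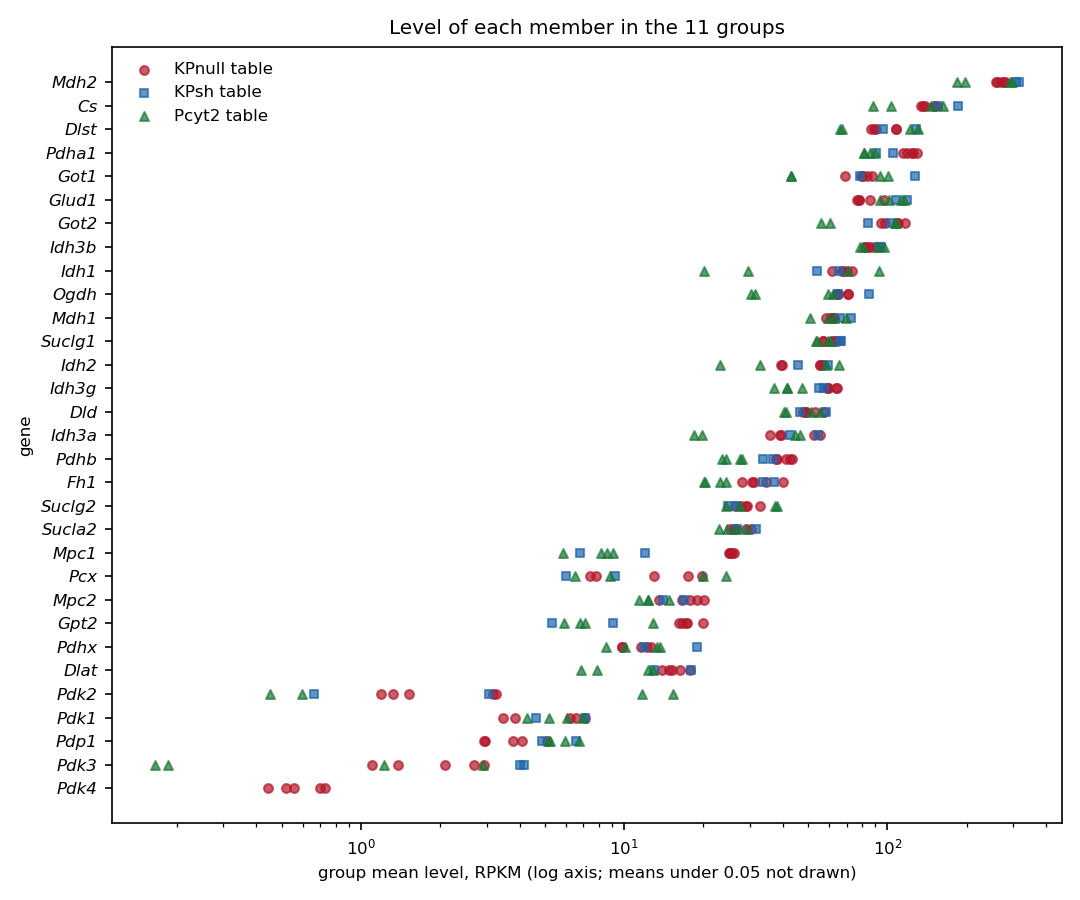
Group mean level of each of the 31 genes in RPKM on a log axis, 1 symbol per group and 1 colour per table. Mdh2 and Cs sit at the top, and Pdk2 and Pdk3 spread the most. Means under 0.05 RPKM, those of Pdk4 in the KPsh and Pcyt2 tables, are not drawn.

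In KPsh cells, more of these genes were lower than higher after 10 days off doxycycline. Off doxycycline Pdk2 and Pcx were higher, with Pdp1 and Idh1 more modestly so, while the pyruvate carrier gene Mpc1, the aminotransferases Gpt2 and Got1, the pyruvate dehydrogenase component Pdhx and Pdk1 were lower. Of 30 genes tested, 4 rose and 16 fell (edgeR quasi-likelihood test, Benjamini-Hochberg adjusted p under 0.05), against 64.8% of all genes tested being called in either direction, 33.1% higher and 31.7% lower. The median log2 change of the 30 was -0.175, beside 0.00717 over all genes tested. The groups differ in doxycycline itself as well as in p53, and these cannot be told apart here or in the Pcyt2 libraries. In KPsh cells without off-doxycycline replicate 2, 7 genes were called higher. Calls over all genes, in either direction, went from 9063 to 9038 there. In bulk RNA, fewer cells of a kind and less RNA per cell cannot be told apart.

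Of the regulators, Pdk2, which inhibits pyruvate dehydrogenase, had 5.77, 6.91 and 7.69 CPM off doxycycline, against 1.52, 1.46 and 1.44 CPM on it. Every library off doxycycline was above every library on it, with a log2 change of 2.20 ± 0.214 (SE; adjusted p = 7.92e-09). Pdk1, from the same kinase family, had 24.6, 23.97 and 23.2 CPM off doxycycline, against 35.98, 37.05 and 36.9 CPM on it. Here the order was the opposite, again without overlap, with a log2 change of -0.61 ± 0.0817 (adjusted p = 9.05e-07). Pdk3 had 8.02, 8.296 and 8.88 CPM off and 9.19, 8.25 and 8.76 CPM on doxycycline, with overlapping libraries and a log2 difference of -0.06 ± 0.136 that was not called. The phosphatase gene Pdp1 had 30.01, 28.7 and 23.9 CPM off doxycycline and 21.4, 19.6 and 20.5 CPM on it, and rose by 0.42 ± 0.0983 on the log2 scale (adjusted p = 0.000735). Per transcript length, the summed kinase level was nearly the same in both groups, at 11.7 ± 0.49 RPKM off and 11.9 ± 0.14 RPKM on doxycycline (SD, n = 3). Its make-up was not, since Pdk2 held 26% ± 2.66 of the sum off and 5.54% ± 0.143 on doxycycline, and Pdk1 39.7% ± 2.81 off and 59.5% ± 1.56 on it.

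At the entry points, Pcx, which makes oxaloacetate from pyruvate, had 37.1, 38.6 and 37.7 CPM off doxycycline, against 24.1, 24.3 and 25.3 CPM on it. The groups did not overlap and the log2 change was 0.62 ± 0.0808 (adjusted p = 6.51e-07). Mpc1 had 4.497, 7.01 and 7.78 CPM off doxycycline, against 12.8, 10.4 and 10.8 CPM on it. All 3 libraries off doxycycline were lower, though they spread from one another, and the log2 change was -0.81 ± 0.166 (adjusted p = 0.000205). In an earlier GENCODE release, exons of the opposite-strand gene 4930506C21Rik cover 23.1% of the exon bases of all Mpc1 transcripts, and counting ignored strand. The share within the counted transcript was not measured, here or for the overlaps of other genes. Its partner Mpc2 averaged 17.1 ± 1.696 CPM off and 14.3 ± 2.27 CPM on doxycycline and was not called, at 0.27 ± 0.122 (adjusted p = 0.0532). Of the 5 genes of the pyruvate dehydrogenase complex, 4 fell, where 31.7% of all genes tested were called lower. Pdhx, which tethers the lipoamide dehydrogenase, had 30.01, 28.5 and 30.02 CPM off doxycycline, against 47.1, 49.6 and 43.7 CPM on it. The libraries did not overlap, and the change was -0.66 ± 0.0799 (adjusted p = 2.14e-07). The acetyltransferase Dlat fell, at -0.47 ± 0.0764 (adjusted p = 1.42e-05). The lipoamide dehydrogenase Dld fell by 0.32 and Pdha1 by 0.21 on the log2 scale, and Pdhb was not called at 0.12. Opposite-strand Map3k15 overlaps 16.1% of the exon bases of all Pdha1 transcripts.

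All 4 glutamate entry genes fell, where 31.7% of all genes tested were called lower. Got1, the cytosolic aspartate aminotransferase, had 158, 152 and 171 CPM off doxycycline, against 263, 252 and 261 CPM on it. Gpt2, the mitochondrial alanine aminotransferase, had 20.4, 18.2 and 19.02 CPM off doxycycline, against 32.4, 36.95 and 29.1 CPM on it. Neither gene's groups overlapped, with log2 changes of -0.69 ± 0.0568 for Got1 (adjusted p = 5.29e-10) and -0.77 ± 0.0989 for Gpt2 (adjusted p = 5.7e-07). Got2 fell by 0.30, and Glud1 by 0.14 with its call lost in 2 of 10 alternative analyses. Within the cycle 5 of 11 genes fell and none rose (all genes, 31.7% lower and 33.1% higher): Dlst by 0.42, Ogdh by 0.39, Idh3a by 0.35, Cs by 0.26 and Sucla2 by 0.24. Idh3b, Idh3g, Suclg1, Suclg2, Fh1 and Mdh2 were not called, with log2 values between -0.11 and 0.14. The NADP-dependent isocitrate dehydrogenases moved apart: cytosolic Idh1 averaged 149.8 ± 6.77 CPM off and 124 ± 10.5 CPM on doxycycline and rose by 0.28 ± 0.0637 (adjusted p = 0.000678). Mitochondrial Idh2 averaged 81.3 ± 2.95 CPM off and 105 ± 4.697 CPM on doxycycline and fell, at -0.37 ± 0.0613 (adjusted p = 1.47e-05). Mdh1 was not called, at 0.13. The share of counts on mitochondrially encoded genes was 1.95% to 2.41% off and 1.8% to 1.98% on doxycycline, and summed epithelial markers were 12400 to 13100 CPM off and 6850 to 7150 CPM on it. Summed endothelial markers were 2.45 to 2.85 CPM off and 0.226 to 0.626 CPM on doxycycline, with 3 of 4 markers under 1 CPM. Summed immune markers, mostly Csf1r and Cd68, were 18.1 to 24.2 CPM off and 11.6 to 14.9 CPM on doxycycline, with 5 of 7 markers under 1 CPM. Their part in these results was not tested.

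**Figure D2:**
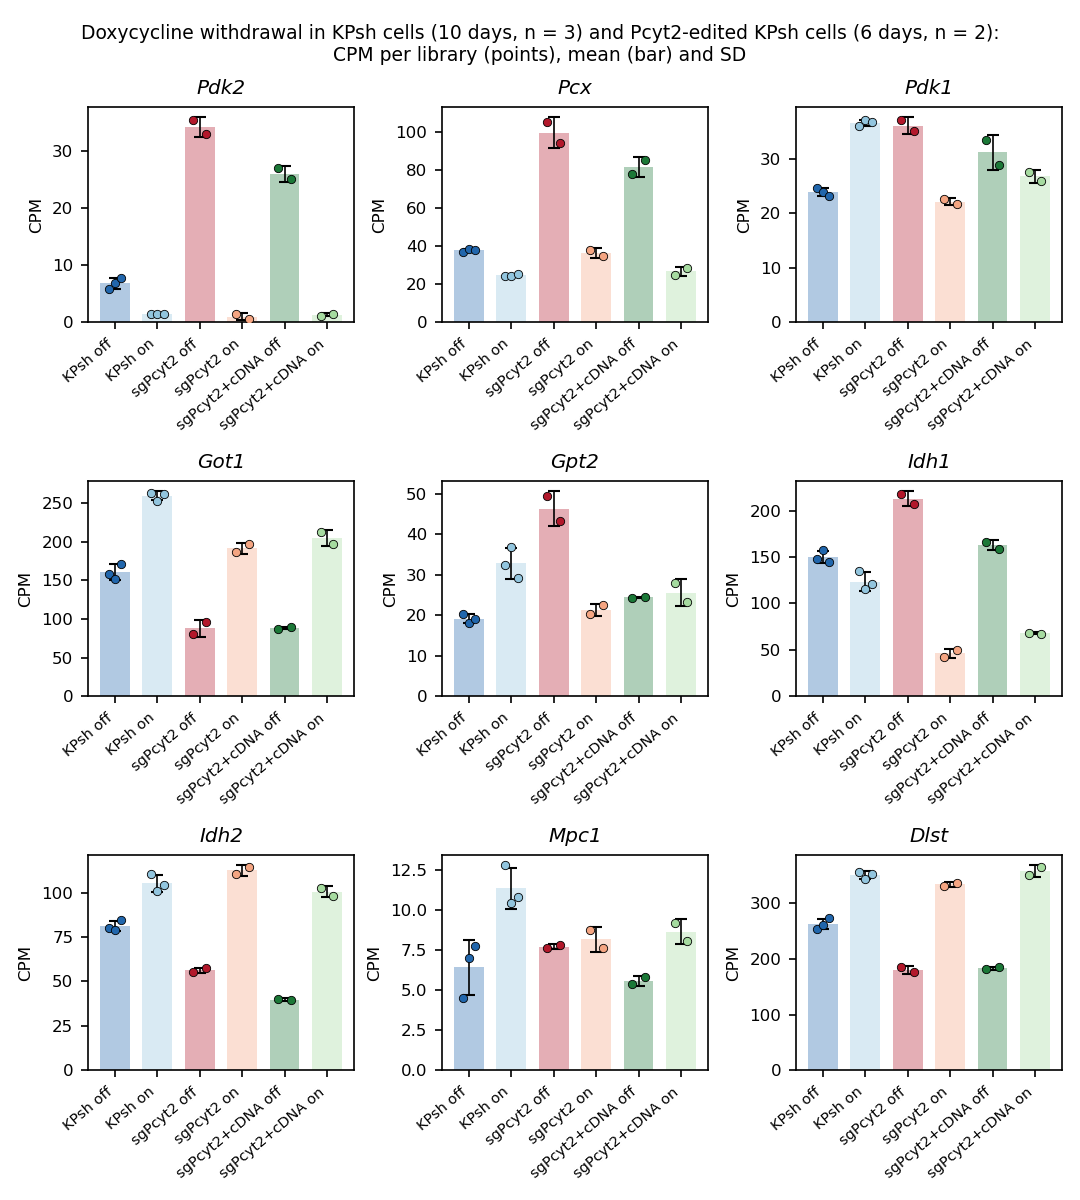
CPM of 9 genes in each library (points) with the group mean (bar) and SD, in KPsh cells (n = 3) and Pcyt2-edited KPsh cells without or with Pcyt2 cDNA (n = 2), each off beside on doxycycline. Pdk2 and Pcx are higher and Got1, Idh2 and Dlst lower off doxycycline in all 3 pairs, and Gpt2 is lower in KPsh cells, higher in sgPcyt2 cells and overlapping with cDNA.

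In KPnull cells, induced p53WT raised Pcx, Pdk2 and Pdk1 and lowered Pdk3, Idh3a and Idh2. Of 31 genes tested, 3 rose and 13 fell against vector, where 50.6% of all genes were called, 25.5% higher and 25.1% lower. The median log2 change was -0.125, beside -0.00654 over all genes. With TAD2m 4 rose and 13 fell (all genes, 49.1%, of which 24.9% higher and 24.2% lower; median -0.111, beside -0.0102). With TAD1m 7 rose and 10 fell (all genes, 36.4%, of which 19% higher and 17.5% lower; median -0.0993, beside -0.0141). With TAD12m none was called in edgeR (all genes, 3.85%, of which 2% higher and 1.85% lower). Of the 31, 6 had an unadjusted edgeR p under 0.05, beside 13.1% of all genes. DESeq2 called 0 of the 31 with TAD12m and 411 of all genes. With p53WT 8 fell without vector replicate 1, where calls over all genes went from 7623 to 6397. All 4 comparisons share the 2 vector libraries. The 17 calls with TAD1m became 10 without TAD1m replicate 2, the 7 higher became 4 without TAD1m replicate 1 and in DESeq2, and the 17 with TAD2m became 7 without TAD2m replicate 1, 9 without vector replicate 1 and 10 in DESeq2. Over all genes, the 5494 calls with TAD1m became 3679 without TAD1m replicate 2, 4121 without TAD1m replicate 1 and 3993 in DESeq2. The 7409 with TAD2m became 5761 without TAD2m replicate 1, 6257 without vector replicate 1 and 5815 in DESeq2.

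Pcx had 79.4 and 82.5 CPM with p53WT, 52.6 and 53.6 with TAD1m, 70.1 and 73.8 in TAD2m cells and 27.2 and 33.6 with TAD12m, against 29.2 and 34.8 CPM with vector. TAD1m lay between the vector and p53WT without touching either, while TAD12m overlapped vector. Against vector its log2 changes were 1.34 ± 0.0945 with p53WT (adjusted p = 1.07e-08), 0.74 ± 0.0962 with TAD1m (adjusted p = 2.13e-05), 1.18 ± 0.0956 with TAD2m (adjusted p = 5.87e-08) and -0.07 ± 0.0997 with TAD12m (adjusted p = 0.899). Set directly against p53WT, TAD1m was lower, at -0.61 ± 0.0906 (adjusted p = 6.48e-05) and so was TAD12m, at -1.42 ± 0.0942 (adjusted p = 6.28e-09).

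Pdk2 had 6.83 and 7.72 CPM with p53WT, 2.83 and 3.04 with TAD1m, 6.58 and 7.56 in TAD2m cells and 2.43 and 2.89 with TAD12m, against 3.17 and 3.62 CPM with vector. Only p53WT and TAD2m stood above vector. The log2 changes against vector were 1.11 ± 0.166 with p53WT (adjusted p = 3.45e-05), -0.20 ± 0.192 with TAD1m, 1.07 ± 0.169 with TAD2m (adjusted p = 6.3e-05) and -0.34 ± 0.191 with TAD12m, and against p53WT TAD1m was lower at -1.30 ± 0.172 (adjusted p = 1.46e-05). Pdk1 followed another order and had 31.1 and 33.1 CPM with p53WT, 36.5 and 36.5 with TAD1m, 33.8 and 34.1 in TAD2m cells and 18.2 and 17.6 with TAD12m, against 20.6 and 19.1 CPM with vector. It rose with p53WT, TAD1m and TAD2m, by 0.69 ± 0.0835, 0.87 ± 0.0821 and 0.77 ± 0.0838 (adjusted p = 3.27e-06, 3.95e-07 and 1.03e-06), and not with TAD12m, at -0.15 ± 0.0868. Pdk3 had 2.69 and 1.91 CPM with p53WT, 6.82 and 5.39 with TAD1m, 2.84 and 2.92 in TAD2m cells and 5.91 and 5.29 with TAD12m, against 3.98 and 4.73 CPM with vector. It was lower with p53WT and TAD2m than with vector and higher with TAD1m and TAD12m, though the TAD12m change was not called. Against vector it fell with p53WT, at -0.90 ± 0.215 (adjusted p = 0.00223), and TAD1m stood 1.40 ± 0.205 above p53WT (adjusted p = 4.24e-05). Its changes of 0.50 ± 0.179 with TAD1m and -0.59 ± 0.211 with TAD2m (adjusted p = 0.0369 and 0.0295) lost their call in 3 of 8 and 4 of 9 alternatives.

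Pdk4 had 1.94 and 1.91 CPM with p53WT, 1.503 and 2.09 with TAD1m, 3.05 and 2.02 in TAD2m cells and 2.53 and 2.29 with TAD12m, against 1.68 and 1.38 CPM with vector, and its 1 call, with TAD2m at 0.72 ± 0.265 (adjusted p = 0.0335), was lost in 4 of 9 alternatives. The other log2 values of Pdk4 were 0.32, 0.21 and 0.64 with p53WT, TAD1m and TAD12m. Pdp1 had 11.5 and 13.1 CPM with p53WT, 21.2 and 21.4 with TAD1m, 11.5 and 13.2 in TAD2m cells and 17.4 and 16.8 with TAD12m, against 17.7 and 14.1 CPM with vector. Its libraries with TAD1m were the highest, 0.80 ± 0.12 above p53WT (adjusted p = 5.59e-05), and its log2 values against vector of -0.39 ± 0.124, 0.41 ± 0.114 and -0.37 ± 0.125 with p53WT, TAD1m and TAD2m (adjusted p = 0.0154, 0.00912 and 0.0211) each lost their call in 3 or 4 alternatives. Per length, the kinases summed to 11.1 RPKM with p53WT, 11.8 with TAD1m, 11.9 in TAD2m cells and 8.03 with TAD12m, against 7.89 RPKM with vector. Pdk2 made up 29.3% ± 1.78 of that sum with p53WT and 11.2% ± 0.849 with TAD1m (SD, n = 2), against 19.3% ± 1.52 with vector.

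**Figure D3:**
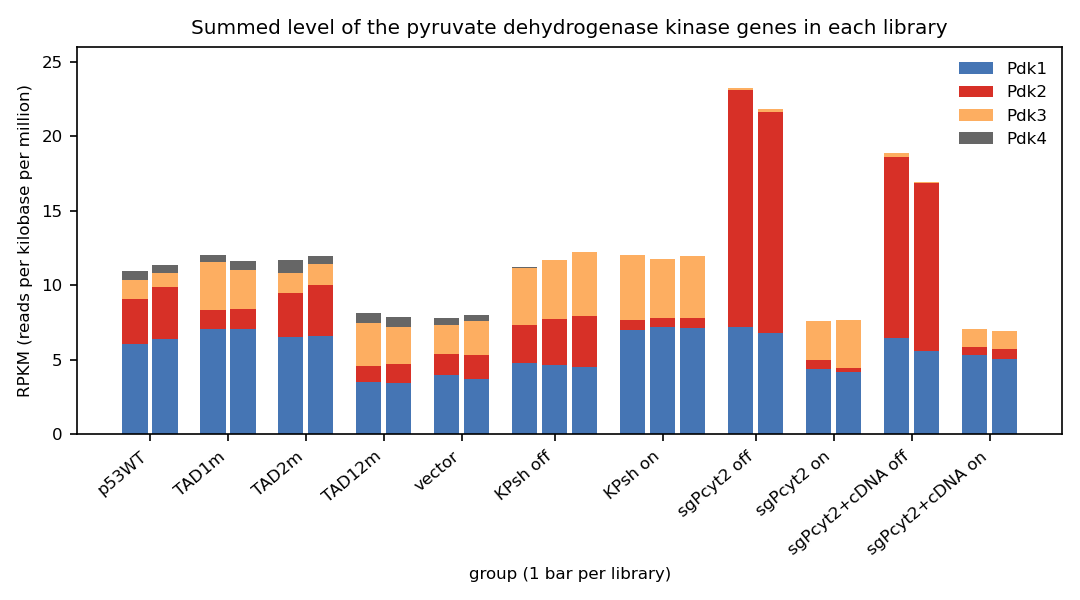
RPKM of the 4 pyruvate dehydrogenase kinase genes stacked in each library, 1 bar per library. The bars of sgPcyt2 cells off doxycycline are tallest, with sums averaging 22.5 RPKM, and are mostly Pdk2.

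Idh3a, the catalytic subunit of the NAD-dependent isocitrate dehydrogenase, had 94.2 and 88.98 CPM with p53WT, 102 and 100.1 with TAD1m, 101 and 99.6 in TAD2m cells and 141 and 129 with TAD12m, against 143 and 141 CPM with vector. It was lower with each single-mutant and p53WT, at -0.63 ± 0.0611 with p53WT (adjusted p = 2.57e-07), -0.49 ± 0.0605 with TAD1m (adjusted p = 8.89e-06) and -0.51 ± 0.0611 with TAD2m (adjusted p = 3.45e-06). Idh2 had 68.8 and 71.1 CPM with p53WT, 96.2 and 99.9 with TAD1m, 70.8 and 69.6 in TAD2m cells and 91.7 and 104 with TAD12m, against 100.4 and 101 CPM with vector. It fell with p53WT and TAD2m, at -0.53 ± 0.067 and -0.52 ± 0.0674 (adjusted p = 5.7e-06 and 7.19e-06), whereas TAD1m stood 0.49 ± 0.0672 above p53WT (adjusted p = 2.29e-05) and at -0.04 against vector. TAD12m stood at -0.04 against vector. Idh1 was not called with any form, at log2 values of -0.01, 0.05, 0.12 and -0.14 with p53WT, TAD1m, TAD2m and TAD12m. Fh1, fumarate hydratase, had 75.6 and 71.5 CPM with p53WT, 102 and 108 with TAD1m, 83.8 and 79.1 in TAD2m cells and 89.5 and 90.7 with TAD12m, against 82.2 and 78.4 CPM with vector. Its libraries with TAD1m were the highest, 0.38 ± 0.0627 above vector (adjusted p = 0.000149) and 0.51 ± 0.0635 above p53WT (adjusted p = 7.85e-06).

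Mpc2 had 21.98 and 16.3 CPM with p53WT, 13.5 and 13.9 with TAD1m, 18.2 and 15.5 in TAD2m cells and 18.03 and 17.99 with TAD12m, against 20.3 and 20.6 CPM with vector. It fell with TAD1m, at -0.57 ± 0.126 (adjusted p = 0.00184), and stood at -0.09, -0.28 and -0.18 with p53WT, TAD2m and TAD12m. Mpc1 stayed between 23.8 and 24.8 CPM in the group means, with no call and log2 values of -0.06, -0.03, -0.06 and -0.06. Smaller decreases with p53WT were those of Pdhx at -0.31 ± 0.0922 and Gpt2 at -0.30 ± 0.0671 (adjusted p = 0.0102 and 0.00135). The others were Dlst, Dlat, Dld, Got2, Cs, Sucla2 and Pdhb, at log2 changes between -0.28 (Dlst) and -0.16 (Pdhb). Pdhx lost its call in 3 of 9 alternatives, and without p53WT replicate 2 its value was -0.198 (adjusted p = 0.143). Of the others, Pdhb lost its call in 7 of 9 alternatives and Sucla2 in 4 of 9. With TAD2m, Dlst stood at -0.32 ± 0.0503 and Pdhx at -0.31 ± 0.0933 (adjusted p = 5.78e-05 and 0.0102), the Pdhx call being lost in 3 of 9 alternatives. With TAD1m, Glud1 rose at 0.34 ± 0.0502 (adjusted p = 5.3e-05), and Dlat, Got1, Sucla2 and Dld fell, at -0.35 ± 0.0643, -0.28 ± 0.0535, -0.26 ± 0.0705 and -0.26 ± 0.0669 (adjusted p = 0.000421, 0.000659, 0.00799 and 0.00612). Suclg2 rose by 0.17 and Pdha1 fell by 0.18 with TAD1m, and Gpt2 was also called lower. With TAD1m the Suclg2 call was lost in 6 of 8 alternatives and the Gpt2 call in 4. The calls of Dld and Pdha1 were lost in 2 each and that of Sucla2 in 1. Cs stood at -0.14 with TAD1m, a call lost in all 8 of 8. Ogdh, Idh3b, Idh3g, Suclg1, Mdh1 and Mdh2 were not called against vector with any p53 form.

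Against p53WT directly, TAD1m had 8 genes higher and 4 lower (all genes, 39.1%, of which 20.4% higher and 18.7% lower), TAD12m 12 higher and 3 lower (all genes, 51.2%, of which 25.5% higher and 25.6% lower), and TAD2m none in edgeR (all genes, 0.285%, of which 0.199% higher and 0.0862% lower). Of the TAD2m values 1 had an unadjusted edgeR p under 0.05, beside 6.03% of all genes. DESeq2 called 0 of them and 36 of all genes. The 8 higher with TAD1m were Pdk3, Pdp1, Fh1, Idh2, Glud1, Suclg2, Pdhx and Got2, and the 4 lower were Pdk2, Pcx, Mpc2 and Got1. Glud1 and Suclg2 stood 0.32 ± 0.0503 and 0.25 ± 0.0589 above p53WT, and Mpc2 and Got1 at -0.48 ± 0.128 and -0.21 ± 0.0537 (adjusted p = 9.02e-05, 0.00324, 0.00665 and 0.00469). The Pdhx call was lost in 7 of 8 alternatives and the Mpc2 call in 2 of 8, and without p53WT replicate 1 the Mpc2 value was -0.245 (adjusted p = 0.191). The 3 lower with TAD12m were Pdk2 at -1.45 ± 0.171 (adjusted p = 2.63e-06), Pdk1 at -0.84 ± 0.0838 (adjusted p = 3.72e-07) and Pcx, and those furthest above p53WT were Pdk3 at 1.27 ± 0.205, Idh3a at 0.56 ± 0.061, Idh2 at 0.48 ± 0.0669, Pdp1 at 0.48 ± 0.122, Pdhx at 0.36 ± 0.0914 and Got2 at 0.30 ± 0.0507 (adjusted p = 7.02e-05, 1.05e-06, 1.48e-05, 0.00338, 0.0036 and 9.77e-05). The p53WT libraries are common to these comparisons. Mitochondrially encoded genes took 3.01% and 3.04% of counts with p53WT, 2.49% and 2.51% with TAD1m, 3.04% and 3.09% in TAD2m cells and 2.46% and 2.16% with TAD12m, against 2.36% and 2.25% with vector. Summed epithelial markers were 8630 to 9110 CPM with p53WT, 5510 to 5630 with TAD1m, 8650 to 8980 in TAD2m cells and 5550 to 6220 with TAD12m, against 6130 to 6570 CPM with vector. Summed immune markers, of which 5 of 7 were under 1 CPM, were 26.4 to 27.4 CPM with p53WT and 25.7 to 26.4 with TAD1m. The sums were 27.3 to 31.1 in TAD2m cells and 19 to 22.5 with TAD12m, against 17 to 18.6 CPM with vector. Their part in these results was not tested.

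**Figure D4:**
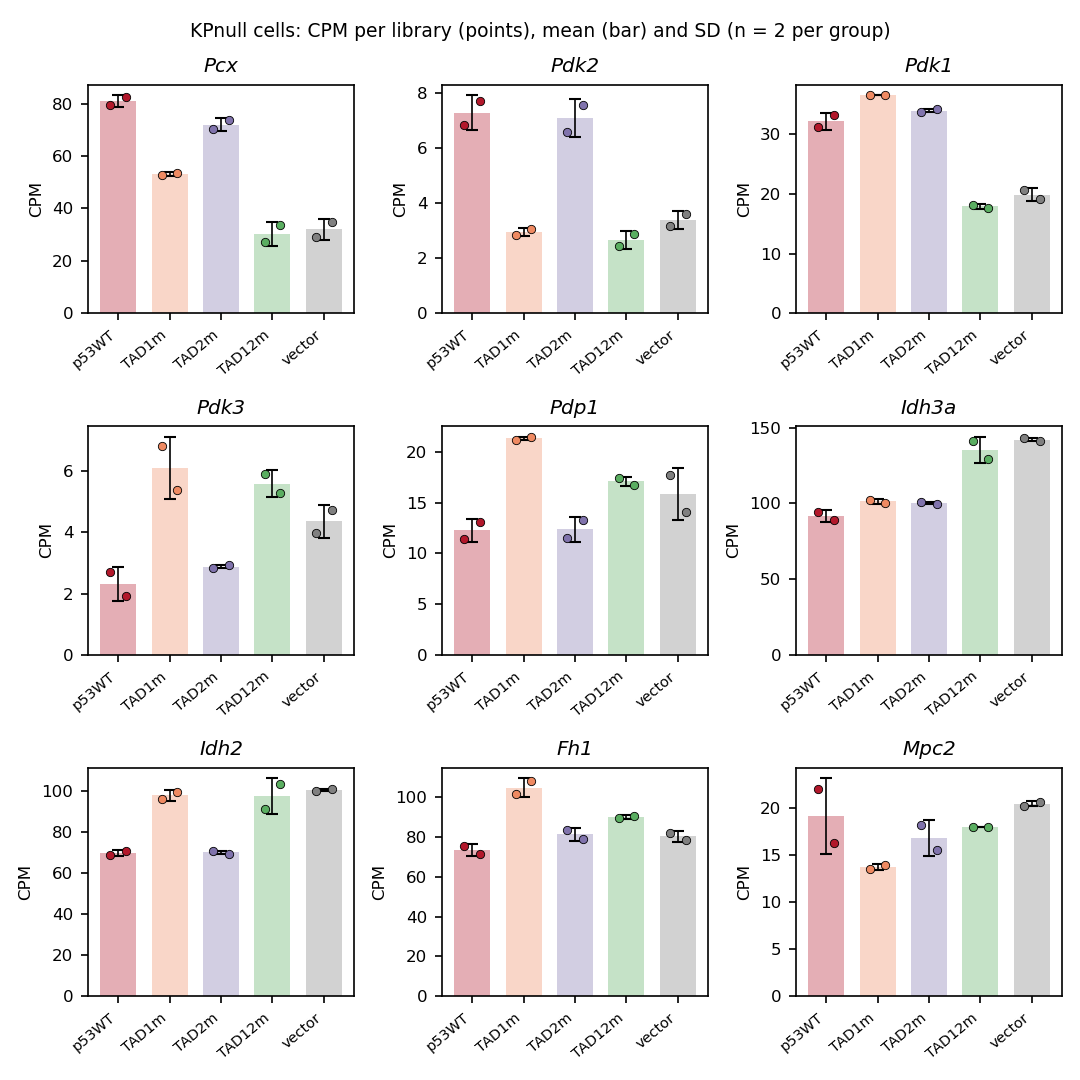
CPM of 9 genes in the KPnull libraries (points) with group mean (bar) and SD (n = 2), in the order p53WT, TAD1m, TAD2m, TAD12m and vector. Pdk2 and Idh2 separate p53WT and TAD2m from the other groups, whereas Pdk1 and Idh3a also separate TAD1m from vector.

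On withdrawal of doxycycline from the Pcyt2-targeted cells, Pdk2, Pcx and Idh1 rose both without and with cDNA, Pdk3, Idh3a, Idh2, Got1, Ogdh and Dlst fell in both, and Gpt2 rose in sgPcyt2 cells. In sgPcyt2 cells 10 of 30 rose and 14 fell (all genes, 76.3%, of which 39.2% higher and 37.1% lower), with a median log2 change of -0.137 beside 0.0244 over all genes. In cells with cDNA 7 rose and 20 fell (all genes, 73.5%, of which 37.3% higher and 36.3% lower), with a median of -0.323 beside 0.0201. These cells were withdrawn for 6 days and KPsh cells for 10, in separate tables, so the sizes are given side by side and were not compared.

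Pdk2 had 35.4 and 32.99 CPM off doxycycline, against 1.39 and 0.612 CPM on it, in sgPcyt2 cells. With cDNA it had 27.01 and 25.02 CPM off and 1.18 and 1.48 CPM on doxycycline. The groups were far apart in both, with log2 changes of 5.06 ± 0.174 in sgPcyt2 cells (adjusted p = 3.21e-29) and 4.27 ± 0.171 with cDNA (adjusted p = 1.88e-26). On doxycycline a library held as few as 9 Pdk2 counts, so the size of the change rests on few reads. Pdk3 had 0.267 and 0.424 CPM off and 5.43 and 6.73 CPM on doxycycline in sgPcyt2 cells. With cDNA it had 0.589 and 0.187 CPM off and 2.499 and 2.597 CPM on doxycycline. It was near 0 off doxycycline in all 4 libraries, with as few as 3 counts, and fell with log2 changes of -4.11 ± 0.336 and -2.71 ± 0.386 (adjusted p = 3.45e-15 and 2.62e-08). Per length the summed kinase level averaged 22.5 RPKM off and 7.64 RPKM on doxycycline in sgPcyt2 cells, and 17.9 off and 7 RPKM on it with cDNA. Pdk2 held 68.2% ± 0.346 of the sum off and 5.9% ± 3.29 on doxycycline in sgPcyt2 cells, and 65.3% ± 1.54 off and 8.52% ± 1.48 on it with cDNA (SD, n = 2). Pdk1 rose in sgPcyt2 cells, with 37.2 and 35.04 CPM off and 22.6 and 21.7 CPM on doxycycline, at 0.71 ± 0.0856 (adjusted p = 4.62e-10). With cDNA it had 33.5 and 28.9 CPM off and 27.6 and 25.97 CPM on it, at 0.22 ± 0.084 (adjusted p = 0.0169), a call lost in 3 of 8 alternatives. Pdk4 was at 0 in all 8 libraries.

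Pcx had 105 and 93.96 CPM off and 38.1 and 34.6 CPM on doxycycline in sgPcyt2 cells, and 77.7 and 85.3 CPM off and 25.1 and 28.3 CPM on it with cDNA. It rose without overlap in both, by 1.46 ± 0.0679 and 1.60 ± 0.0728 (adjusted p = 7.82e-23 and 3.3e-23). Idh1 had 218 and 207 CPM off and 42.5 and 49.7 CPM on doxycycline in sgPcyt2 cells, and 166 and 159 CPM off and 68.4 and 66.9 CPM on it with cDNA. It rose by 2.21 ± 0.0555 and 1.26 ± 0.0533 (adjusted p = 4.83e-34 and 2.82e-25). Idh2 had 55.5 and 57.4 CPM off and 111 and 115 CPM on doxycycline in sgPcyt2 cells, and 40.3 and 39.3 CPM off and 103 and 98.3 CPM on it with cDNA. It fell, at -1.0 ± 0.0548 and -1.33 ± 0.0578 (adjusted p = 2.62e-21 and 3.73e-25). Gpt2 had 49.4 and 43.2 CPM off and 20.3 and 22.4 CPM on doxycycline in sgPcyt2 cells, and 24.4 and 24.6 CPM off and 28.01 and 23.3 CPM on it with cDNA. It rose in sgPcyt2 cells, at 1.12 ± 0.0872 (adjusted p = 9.94e-16), and overlapped between groups with cDNA, at -0.06 ± 0.0926.

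Of the 11 cycle enzymes, 6 fell and 3 rose in sgPcyt2 cells, and 8 fell and 3 rose with cDNA, where 76.3% and 73.5% of all genes were called. Idh3a had 44.9 and 49.03 CPM off and 107 and 121 CPM on doxycycline in sgPcyt2 cells, and 52.2 and 48.5 CPM off and 121 and 118 CPM on it with cDNA, with log2 changes of -1.28 ± 0.0607 and -1.25 ± 0.0591 (adjusted p = 2.03e-23 and 2.14e-23). Got1 had 79.9 and 95.5 CPM off and 186 and 196 CPM on doxycycline in sgPcyt2 cells, and 86.9 and 89.2 CPM off and 212 and 197 CPM on it with cDNA, at -1.13 ± 0.0573 and -1.21 ± 0.0566 (adjusted p = 9.86e-18 and 1.12e-18). Got2, 9% of whose exon bases over all transcripts are overlapped by the opposite-strand gene Gm45760, had 136 and 145 CPM off and 259 and 278 CPM on doxycycline in sgPcyt2 cells, and 149.9 and 154 CPM off and 275 and 269 CPM on it with cDNA. In these genes the libraries off doxycycline were all below those on it. The oxoglutarate dehydrogenase subunits followed: Ogdh had 125 and 124 CPM off and 235 and 249 CPM on doxycycline in sgPcyt2 cells, and 131 and 125 CPM off and 259 and 250.3 CPM on it with cDNA. Dlst had 186 and 176 CPM off and 330.3 and 337 CPM on doxycycline in sgPcyt2 cells, and 181 and 185 CPM off and 350.3 and 365 CPM on it with cDNA. In sgPcyt2 cells and with cDNA, Ogdh changed by -0.96 ± 0.044 and -0.99 ± 0.0434 (adjusted p = 2.42e-24 and 5.76e-25) and Dlst by -0.89 ± 0.041 and -0.97 ± 0.0407 (adjusted p = 4.33e-24 and 1.21e-25). Got2 changed by -0.94 ± 0.044 and -0.84 ± 0.0433 (adjusted p = 5.93e-24 and 3.35e-22).

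Cs had 254 and 259.8 CPM off and 415 and 436 CPM on doxycycline in sgPcyt2 cells, and 311 and 290.2 CPM off and 481 and 465 CPM on it with cDNA, a log2 change of -0.73 and -0.65. Mdh2 had 254 and 274 CPM off and 428 and 425 CPM on doxycycline in sgPcyt2 cells, and 282 and 283 CPM off and 407 and 435 CPM on it with cDNA, at -0.69 and -0.57. Dlat had 31.8 and 31.6 CPM off and 49.8 and 48.8 CPM on doxycycline in sgPcyt2 cells, and 26.7 and 28.3 CPM off and 53.9 and 49.3 CPM on it with cDNA, at -0.64 and -0.90. These 3 genes were lower off doxycycline in every library. The succinyl-CoA synthetase gene Suclg2 went the other way, at 0.64 ± 0.0499 and 0.44 ± 0.0489 (adjusted p = 6.07e-16 and 6.19e-11), and Idh3b rose by 0.31 and, with cDNA, by 0.18 ± 0.0455 (adjusted p = 0.000411). Suclg1 rose by 0.13 and 0.18, the sgPcyt2 call being lost in 3 of 8 alternatives. Mpc1 stood at -0.08 in sgPcyt2 cells and fell by 0.62 with cDNA. Mpc2 stood at 0.11 and fell by 0.27 with cDNA, the last call being lost in 4 of 8 alternatives. Dld, Pdhx, Fh1 and Pdhb fell in both, at -0.33, -0.41, -0.19 and -0.17 in sgPcyt2 cells and -0.42, -0.69, -0.27 and -0.25 with cDNA. Pdha1, Idh3g and Sucla2 fell with cDNA by 0.14, 0.35 and 0.34 and were at -0.07, 0.00 and -0.10 without it. Mdh1 rose in sgPcyt2 cells, at 0.46, and stood at 0.07 with cDNA. Glud1 rose by 0.16 in sgPcyt2 cells and fell by 0.31 with cDNA. Pdp1 was not called in either, at -0.18 and -0.03. Mitochondrially encoded genes took 3.51% and 3.31% of counts off and 1.86% and 1.98% on doxycycline in sgPcyt2 cells, and 3.34% and 3.33% off and 2% and 1.96% on it with cDNA. Summed epithelial markers were 10300 to 11000 CPM off and 6370 to 6450 CPM on doxycycline in sgPcyt2 cells, and 11400 to 11500 CPM off and 7530 CPM on it with cDNA. Summed endothelial markers, mostly Cdh5, were 6.67 to 8.26 CPM off and 2.24 to 2.78 CPM on doxycycline in sgPcyt2 cells, and 6.54 to 7.22 CPM off and 0.662 to 0.826 CPM on it with cDNA. Their part in these results was not tested.

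Whether the withdrawal effect differed between sgPcyt2 cells without and with cDNA was tested with an interaction term. The difference was positive and called for 9 of 30 genes, and negative and called for none (all genes, 25.2%, of which 12.8% positive and 12.4% negative). Negative calls appeared in 3 alternatives: Mdh2 with no filter on low counts (-0.163), Mdh2 and Got2 without replicate 2 of sgPcyt2 cells off doxycycline (-0.207 and -0.183), and Pdk3 without replicate 2 of cells with cDNA off doxycycline (-2.04). In Gpt2 it was 1.18 ± 0.128 (adjusted p = 4.43e-10), in Idh1 0.94 ± 0.0783 (adjusted p = 1.93e-13), in Pdk1 0.49 ± 0.12 (adjusted p = 0.00166), in Glud1 0.47 ± 0.0563 (adjusted p = 4.04e-09), in Mdh1 0.39 ± 0.0661 (adjusted p = 8.76e-06) and in Idh3g 0.35 ± 0.0778 (adjusted p = 0.000429). For Pdk2 and Pdk3 the difference was 0.80 ± 0.363 and -1.40 ± 0.67, and for Pcx -0.15 ± 0.102, none of them called (adjusted p = 0.106, 0.127 and 0.32). Trp53 itself rose less without cDNA, with an interaction of -1.22 ± 0.116. Before withdrawal, on doxycycline, sgPcyt2 cells had 4 genes higher and 8 lower than cells with cDNA (all genes, 18.4%, of which 8.4% higher and 10% lower). Those higher were Pdk3 at 1.25 ± 0.216, Pcx at 0.44 ± 0.0823, Pdp1 at 0.37 ± 0.0875 and Idh2 at 0.17 ± 0.0505 (adjusted p = 1.78e-05, 7.49e-05, 0.00157 and 0.0156), and the lowest were Idh1 at -0.56 ± 0.0622, Mpc2 at -0.37 ± 0.119 and Pdk1 at -0.27 ± 0.0894 (adjusted p = 1.39e-09, 0.0214 and 0.025). Pdk1 lost this call in 6 of 8 alternatives, and Mpc2 and Idh2 lost theirs in 3 of 8 each. Mdh1, Idh3g and Glud1 followed at -0.24 ± 0.0476, -0.20 ± 0.0542 and -0.20 ± 0.0397 (adjusted p = 0.000176, 0.00611 and 0.000168), the Idh3g call being lost in 3 of 8. Off doxycycline 12 were higher and 2 lower (all genes, 33.1%, of which 16.3% higher and 16.8% lower), led by Gpt2 at 0.92 ± 0.0847, Idh2 at 0.50 ± 0.0627, Mpc1 at 0.47 ± 0.157 and Pdk2 at 0.40 ± 0.0938 (adjusted p = 2.52e-12, 8.58e-09, 0.0172 and 0.000749). Idh1 and Pcx followed at 0.39 ± 0.0475 and 0.29 ± 0.0603 (adjusted p = 5.65e-09 and 0.000152), and the 2 lower were Cs at -0.22 ± 0.0417 and Got2 at -0.12 ± 0.0456 (adjusted p = 2.59e-05 and 0.038). The 14 calls off doxycycline became 8 without sgPcyt2 replicate 1, 9 and 7 without replicate 1 or 2 of the cells with cDNA, and 6 in DESeq2, which called 7 on doxycycline. Over all genes the 4944 calls off doxycycline became 3391, 3634, 3727 and 2862, in the same order. On doxycycline DESeq2 called 1433 of all genes, against 2746 in edgeR. On doxycycline the 8 lower became 4 without sgPcyt2 replicate 1 and 5 without replicate 1 of the cells with cDNA. The 2746 calls over all genes became 2141 and 1878 in these alternatives. Off doxycycline the Mpc1 call was lost in 5 of 8 alternatives, the Got2 call in 4 of 8 and the Pdk2 call in 1 of 8.

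**Figure D5:**
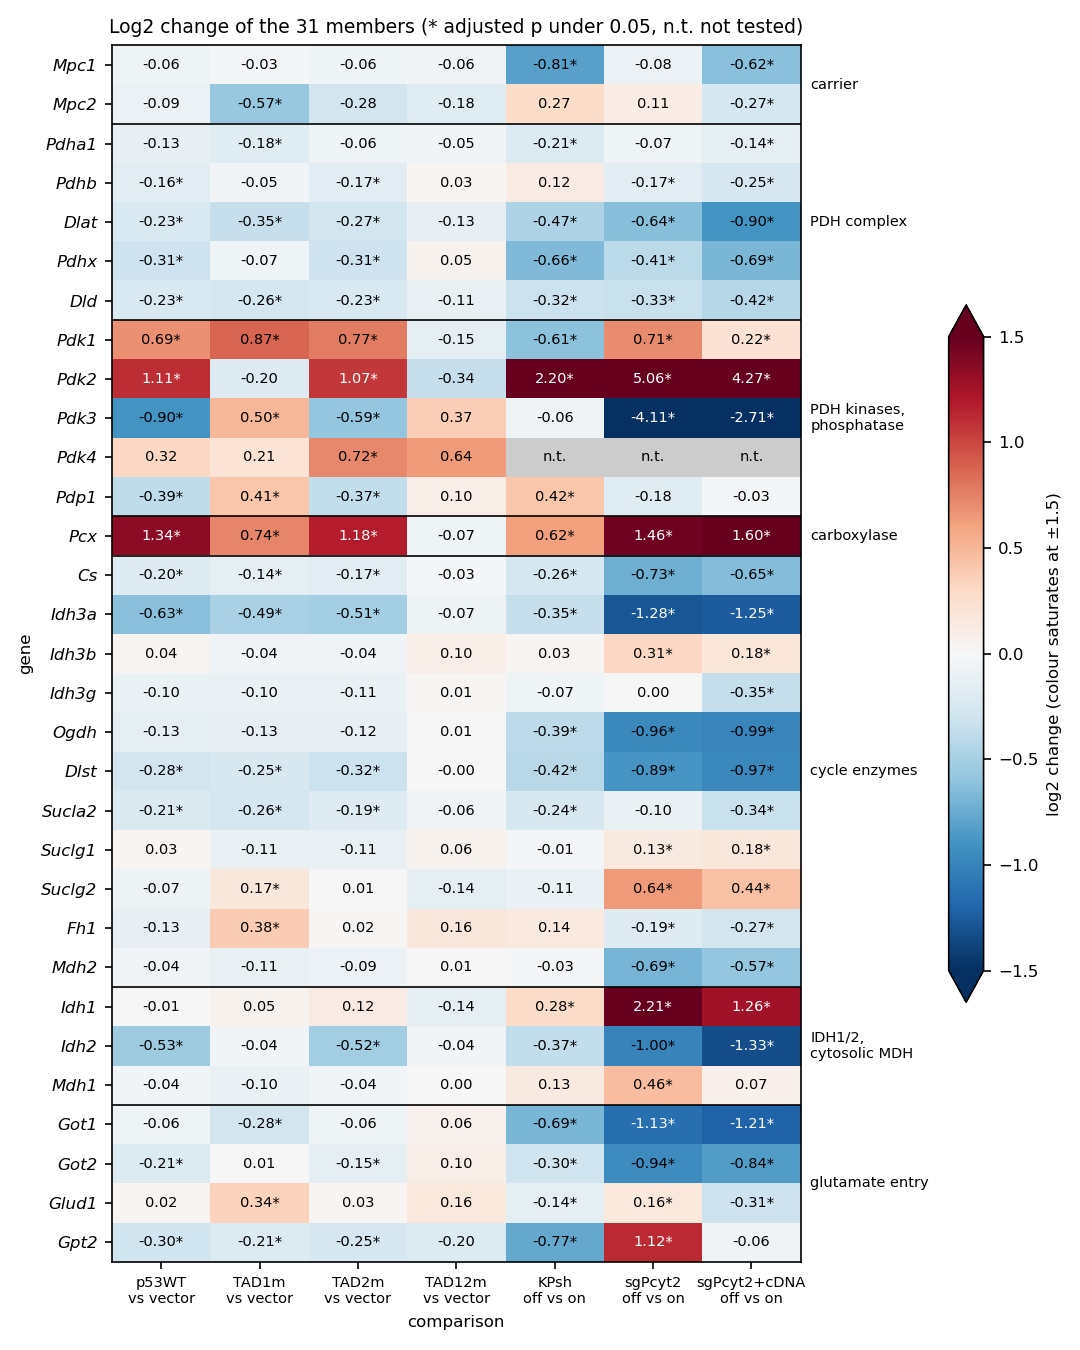
Log2 change of the 31 genes, grouped by role, in 4 comparisons against vector in KPnull cells and 3 comparisons of doxycycline withdrawal, with called changes starred. Pcx is red in every column but TAD12m, and Pdk1 is blue in KPsh withdrawal (-0.61) but red with p53WT (0.69).

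Across the KPsh withdrawal, p53WT against vector in KPnull cells and withdrawal in cells with cDNA, which share no library, Pcx and Pdk2 were called higher in all 3. They are 2 of the 30 genes tested in all 3 tables, or 6.67%, against 17.7% of all 13149 genes tested in all 3, so this share is below that of all genes. The 3 comparisons called 4, 3 and 7 of the genes higher. Cs, Dlat, Dld, Dlst, Got2, Idh2, Idh3a, Pdhx and Sucla2 were called lower in all 3, which is 9 of 30, or 30%, against 17.7% of all genes, where the comparisons called 16, 13 and 20 lower. With p53WT against vector, Sucla2 lost its call in 4 of 9 alternatives, Pdhx in 3, Dld in 2 and Dlat in 1, and in KPsh cells Sucla2 lost it in 1 of 10. Pdk1 was called in all 3 but not in the same direction, at -0.61 in KPsh cells, 0.69 with p53WT and 0.22 with cDNA. Idh1 rose in KPsh cells (0.28) and with cDNA (1.26), and stood at -0.01 with p53WT.

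Of 33 other genes of the pathway, such as aconitases, succinate dehydrogenase subunits, malic enzymes, glutamine enzymes and mitochondrial carriers, 31 were tested in KPsh cells, where 7 rose and 15 fell, together 71%, against 64.8% of all genes. With p53WT against vector 5 of 32 rose and 14 fell, together 59.4%, against 50.6% of all genes. With TAD1m 4 rose and 15 fell and with TAD2m 5 rose and 14 fell, together 59.4% each, against 36.4% and 49.1% of all genes. With TAD12m 1 fell, or 3.12%, against 3.85% of all genes. On withdrawal 11 of 30 rose and 16 fell in sgPcyt2 cells, and 5 rose and 19 fell with cDNA, together 90% and 80%, against 76.3% and 73.5% of all genes. Ogdhl, a relative of Ogdh, rose in KPsh cells by 2.80, with p53WT by 3.22, with TAD1m by 2.66 and with TAD2m by 3.20, and in the edited cells by 2.03 without and 2.67 with cDNA. Psat1, which uses glutamate to make phosphoserine, fell by 0.87 in KPsh cells, by 0.90 with p53WT and by 2.65 and 2.64 in the edited cells without and with cDNA. The mitochondrial malic enzyme gene Me2 fell by 0.51, 0.53, 1.35 and 1.27 in the same comparisons. Glul, glutamine synthetase, rose by 0.58 in KPsh cells and by 2.43 and 1.59 in the edited cells without and with cDNA, and fell with TAD12m by 0.48. Gls2, a glutaminase, fell by 1.42 in KPsh cells, rose by 0.96 in sgPcyt2 cells and fell by 0.26 with cDNA. Slc25a12, Slc25a13 and Slc25a22, mitochondrial carriers of aspartate and glutamate, fell in KPsh cells by 1.17, 0.52 and 0.97. The glutamine transporter gene Slc1a5 fell by 0.37 in KPsh cells, 0.71 with p53WT, and 1.66 and 2.25 in the edited cells without and with cDNA. Pdpr, a regulator of the pyruvate dehydrogenase phosphatase, fell by 1.09 in KPsh cells and rose by 0.53 in sgPcyt2 cells. Oat, ornithine aminotransferase, fell by 0.54 with p53WT and rose by 1.74 and 1.5 in the edited cells without and with cDNA.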

How the data were processed

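The deposited values are estimated counts per gene that the authors made with STAR 2.6.1c, per the submitters' processing notes, and HOMER on mm10 with GENCODE vM25 annotation, per the file headers (exons, either strand, 1 transcript kept per gene). In each library 17.6% to 19.9% of the 55401 values were not whole, and all were rounded to the nearest whole number before testing, which moved a library's total by at most 0.0533%. The deposited length column gave RPKM. Tables were tested separately with edgeR 4.0.16 (TMM factors, low counts filtered by filterByExpr, robust quasi-likelihood fit over the table's groups, R 4.3.3), and CPM are TMM-scaled. DESeq2 1.42.0, RLE factors, no filter, a replicate block and leaving out each library were alternatives. The code was tested on simulated data. Columns naming only a day or a wild-type Pcyt2 were matched to groups by elimination. The series text and the growth protocol differ on whether all KPnull cells received doxycycline, and the protocol was followed. Members and lists were chosen with earlier results of these data known. Every gene is named with its range of group means, with full statistics for up to 6 called genes per direction. Values of every library are given for genes called with a log2 change of at least 0.5 and a mean of at least 5 CPM, up to 14 a table.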

Additional observations from a re-analysis of the deposited data

Results flagged for a closer look

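For 9 of 30 genes tested, or 30%, the effect of doxycycline withdrawal differed between sgPcyt2 cells without and with Pcyt2 cDNA, by the interaction term (edgeR, adjusted over all 14916 genes tested), with 2 libraries a group. Of all genes 25.2% were called, 12.8% positive and 12.4% negative. The difference without minus with cDNA was 1.18 in Gpt2, 0.94 in Idh1, 0.49 in Pdk1, 0.47 in Glud1, 0.39 in Mdh1, 0.35 in Idh3g, 0.34 in Idh2, 0.24 in Sucla2 and 0.21 in Suclg2 on the log2 scale. The differences in Sucla2 and Suclg2 lost their call in 10 and 7 of 12 alternative analyses.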

How the results depend on the processing

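Over the alternatives no called change turned its direction. RLE factors and no filter on low counts kept every total count of calls within 1.5 times. DESeq2 called 10 genes with TAD2m against vector (17 in edgeR), and 7 on and 6 off doxycycline between sgPcyt2 cells and cells with cDNA (12 and 14). Over all genes these totals also fell, from 7409 to 5815, from 2746 to 1433 and from 4944 to 2862. Leaving out 1 library gave 19 to 22 calls in KPsh cells (all genes, 8484 to 9038) and 11 to 15 with p53WT (all genes, 6193 to 7275). With TAD1m it gave 10 to 13 (all genes, 3679 to 5228) and with TAD2m 7 to 14 (all genes, 5761 to 6883). Against p53WT it gave 10 to 11 for TAD1m (all genes, 4156 to 4796) and 11 to 13 for TAD12m (all genes, 6130 to 7532). On withdrawal it gave 23 to 26 in sgPcyt2 cells (all genes, 10629 to 11012) and 24 to 27 with cDNA (all genes, 10128 to 10363). Between those cells it gave 8 to 11 on doxycycline (all genes, 1680 to 2141) and 7 to 12 off it (all genes, 3391 to 4599). The interaction had 7 to 9 (all genes, 2978 to 3859). The total counts moved by over 1.5 times were 10 without TAD1m replicate 2, 7 without TAD2m replicate 1 and 9 without vector replicate 1 (TAD2m), and off doxycycline 8 without sgPcyt2 replicate 1 and 9 and 7 without replicate 1 or 2 with cDNA. Calls over all genes fell in these alternatives as well, as given with the comparisons. By direction, 4 higher became 7 in KPsh cells without off-doxycycline replicate 2, and 13 lower with p53WT became 8 without vector replicate 1. With TAD1m 7 higher became 4 without its replicate 1. On doxycycline 8 lower became 4 and 5 without sgPcyt2 or cDNA replicate 1, and off doxycycline 2 lower became 1 to 4. Calls over all genes, in either direction, fell in each of these alternatives too. The cause was not tested. Same-numbered libraries correlated at -0.126 to -0.0996 in KPsh cells and -0.204 to 0.354 in KPnull cells, of mixed sign, and the labels give the numbers no meaning, so they were not treated as pairs. With the replicate block, 20 genes were called in KPsh cells (all genes, 8665) and every total count stayed within 1.5 times. Crossing the numbers, chosen after seeing the data, gave 17 calls with p53WT (all genes, 7932) and 18 with TAD2m (all genes, 7634) against vector. For TAD12m against p53WT it gave 15 (all genes, 7509). Mpc2 was called in KPsh cells without either replicate 2. Pdk2 on and Pdk3 off doxycycline in the Pcyt2 libraries, at 9 and 3 counts at the lowest, are limited by depth.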
